A study of Danio rerio with 13 samples.

Results

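The genes described here are 120 liver genes that stood lower in 3 of 13 zebrafish livers than in each of the other 10. Most of those with a known role make hepatocyte products, namely secreted plasma proteins, complement and clotting factors, and enzymes of amino acid breakdown. They were chosen from the counts themselves. Each count was divided by the total of its liver and multiplied by 1000000, a unit called CPM. The 3 livers were those with more than 1000 CPM of apoea, an apolipoprotein gene, and held 11863 to 18930 CPM of it against at most 2.15 CPM in the other 10. Genes with at least 100 CPM in each of the 10 livers were ranked by their lowest value in the 10 livers over their highest value in the 3 plus 0.1 CPM. After 10 hepatocyte genes were left out by their identifiers, 446 of the 32105 genes of the table remained, and the first 120 were taken. The lower level of these genes in the 3 livers is therefore how they were chosen, not a finding, and it is described below without a test.

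The fish were male, 3 months old and of the AB strain, and their livers were sequenced one by one. There were 5 wild-type fish (tert+/+), 5 heterozygous mutants (tert+/-) and 3 homozygous mutants (tert-/-). Their mutant line, tert hu3430, carries a mutation of the catalytic subunit of telomerase that is not restricted to the liver, and the labels give no treatment. The 3 livers with high apoea were 1 of each genotype, tert+/+ liver 5, tert+/- liver 3 and tert-/- liver 1, numbered in order of accession. The 10 others were 4 tert+/+, 4 tert+/- and 2 tert-/- livers.

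Hepatocytes are the main cell type of the liver. They make most of the proteins of blood plasma, among them carriers, protease inhibitors, clotting factors and complement, and release them into the circulation. They also break down amino acids, store and release glucose, and build and export fat. Enterocytes, the absorptive cells of the intestine, share part of this programme, since they too assemble lipoproteins and bind fatty acids and retinol.

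The totals were 17801374 to 37309651 counts per liver, and the lowest count of any member in any of the 3 livers was 309. All 120 members passed the filter on low counts of the genotype tests. TERT (ENSDARG00000042637), the mutated gene, was at 0.515 to 15.4 CPM in tert+/+, 2.33 to 9.09 CPM in tert+/- and 4.09 to 7.62 CPM in tert-/- livers, so its level did not separate the genotypes. Genes encoded by mitochondrial DNA took 54.7% of the counts of tert+/+ liver 4, 40.3% of tert+/- liver 3 and 32.8% of tert-/- liver 2, against 7.93% to 21.0% in the rest. A liver with more of these counts has fewer left for all other genes, so shares are also given without them. Heart muscle markers took 1.41% of counts in tert+/+ liver 1 and 1.18% in tert+/- liver 5, and at most 0.00584% in the rest.

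Of 15 known hepatocyte markers examined, 8 are members and 6 are among the 10 left-out genes, so the choice had already fixed or passed over most of them and they are no separate check of the label. All 15 were lower in the 3 livers than in each of the 10. The 1 outside both sets, the fetuin gene ahsg2, was at 207 to 450.0 CPM in the 3 livers and 529 to 3278 CPM in the 10. Intestine markers stood higher in the 3 livers. Leaving out the member among them, they summed to 4.23% to 6.94% of counts in the 3 livers and 0.104% to 0.238% in the 10. Of 40 intestine list genes with a mean of at least 1 CPM, 36 were higher in the 3 livers than in each of the 10, 2 were lower and 2 overlapped. Of all 13001 such genes, 20.5% were higher, 6.48% lower and 73.1% overlapped. VIL1, a protein of the enterocyte brush border, was at 1362 to 1861 CPM in the 3 livers and at most 0.636 CPM in the 10. The digestive chitinase chia.1 was at 6022 to 16295 CPM against at most 3.42 CPM. FABP2 was at 8537 to 12404 CPM against 76.6 to 343, and apoa4b.2 at 7837 to 13059 CPM against 39.0 to 283. chia.3 was at 4172 to 10461 CPM against at most 2.11 CPM, and chia.2 at 3433 to 6050 CPM against at most 0.835 CPM. Markers of bile duct, stellate and endothelial cells summed to 0.430% to 0.530% of counts in the 3 livers and to 0.0919% to 0.177% in the 10. Of these 26 genes, 4 were higher in the 3 livers, 5 were lower and 17 overlapped. The higher sum thus does not hold for most genes of the list. The keratin gene krt4, named after its values were seen, was at 2071 to 2664 CPM against 5.97 to 31.98 CPM, and the endothelial receptor gene kdrl at 13.7 to 23.5 CPM against 28.9 to 85.8 CPM. The part of RNA from the intestine or from these other cells in the lower level of the members was not tested.

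Together the members took 2.39%, 1.98% and 2.39% of all counts in tert+/+ liver 5, tert+/- liver 3 and tert-/- liver 1. In the 10 livers they took 8.84% to 18.1%, with a median of 15.8%. When counts of mitochondrially encoded genes were left out, the 3 livers were at 2.82% to 3.31% and the 10 at 15.2% to 19.8%. The lowest of the 10, tert+/+ liver 4, was at 8.84% of all counts but 19.5% without the mitochondrial ones, which placed it second among the 10. It held the lowest value of the 10 livers for 85 of the 120 members on all counts and for 7 of 120 without mitochondrially encoded genes. In whole-tissue RNA, fewer hepatocytes and less of these RNAs in each hepatocyte cannot be told apart.

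**Figure D1:**
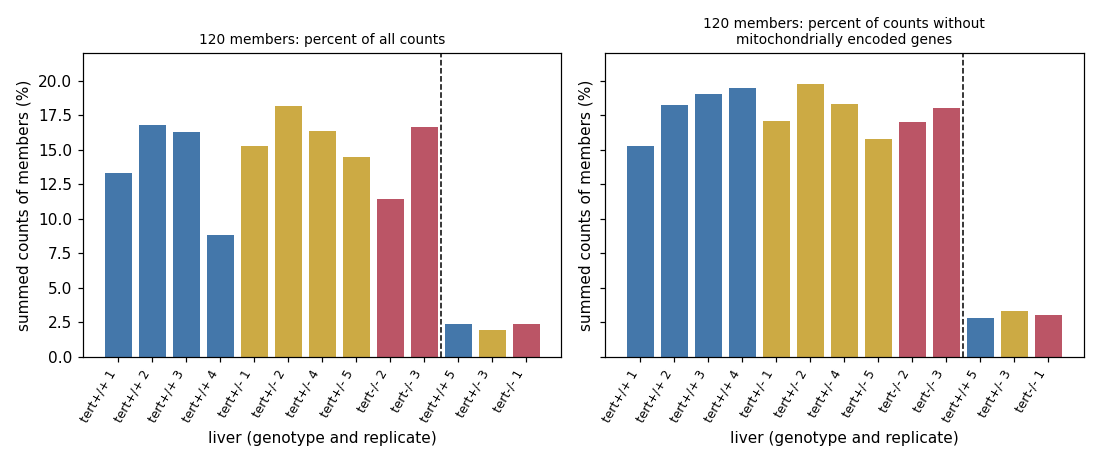
Summed counts of the 120 members in each liver, as percent of all counts (left) and of counts without mitochondrially encoded genes (right), coloured by genotype; the 3 livers with high apoea stand right of the dashed line. They sit at 1.98% to 2.39% on the left and 2.82% to 3.31% on the right, below every bar of the other 10.

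All members were still counted in the 3 livers. For each member, the mean of the 3 livers was expressed as percent of the median of the 10 livers, here called the remaining level. Its median over the 120 members was 14.8%, with quartiles at 13.1% and 17.6%, and 117 of the 120 lay between 8% and 25%, an upper end that the ranking itself limited. This is a level 6.76-fold lower at the median, and 3.32-fold to 14.2-fold lower over the members. The lowest remaining level was 7.04%, in apom, and the highest 30.1%, in DPYD. Among all 456 genes with at least 100 CPM in each of the 10 livers, the left-out genes included, no gene remained at under 5% and 2 at under 8%. The 10 left-out genes, such as fabp10a and apoa1b, remained at 13.1% to 23.7%, with a median of 16.9%. Of the 456 genes, 172 were lower in each of the 3 livers than in any of the 10, or 37.7%, and 28 were higher in each of the 3. The floor of 100 CPM was set in the 10 livers alone, which favours genes lower in the 3, so nothing is read from this share. Of all 13001 genes with a mean of at least 1 CPM, 6.48% were lower and 20.5% higher. This mean includes the 3 livers, which favours genes higher in them.

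**Figure D2:**
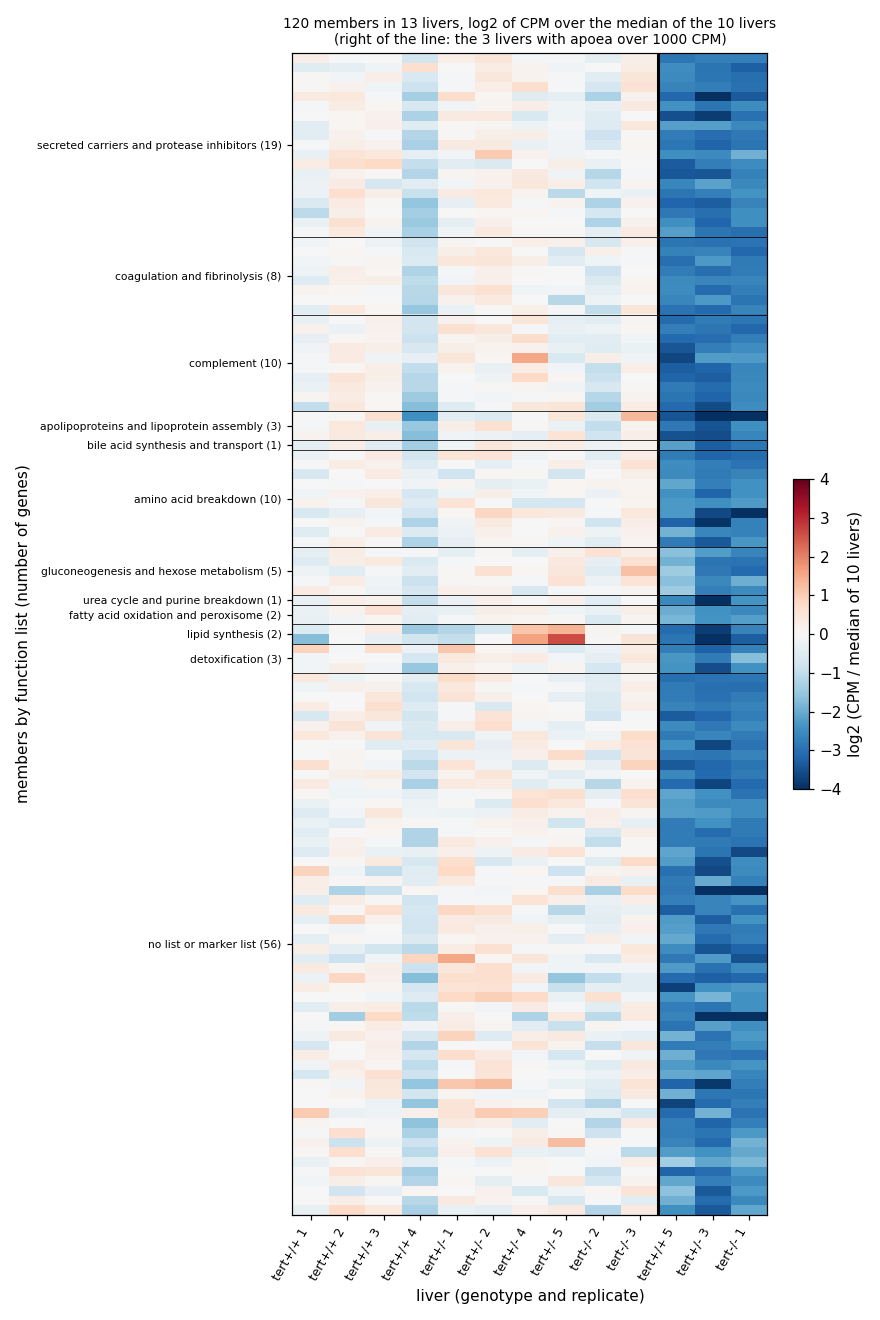
Each row is 1 of the 120 members, each column a liver, and the colour is log2 of CPM over the median of the 10 livers; rows are grouped by the first function list that holds the gene, and columns right of the line are the 3 livers with high apoea. The 3 columns right of the line are blue in every row, and among the 10 others tert+/+ liver 4, with 54.7% of mitochondrial counts, is the column with the most blue.

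The 3 livers did not rank the same way for every member. On all counts, the median remaining level was 15.1%, 13.1% and 15.6% for tert+/+ liver 5, tert+/- liver 3 and tert-/- liver 1 respectively, and tert+/- liver 3 was the lowest of the 3 for 70 of the 120 members. Without mitochondrially encoded genes the medians were 15.6%, 18.3% and 17.0%, and tert+/+ liver 5 was the lowest for 57 members. The order of the 3 livers thus turned with the counts used as denominator.

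The largest group of members was that of secreted carriers and protease inhibitors. It held 19 members, with a median remaining level of 14.4%. Of the 39 genes of this list with a mean of at least 1 CPM, 30 were lower in the 3 livers than in each of the 10, 0 were higher and 9 overlapped, where 6.48% of all 13001 such genes were lower, 20.5% higher and 73.1% overlapped. These counts hold the members, and the left-out genes of the list, which the choice placed on the lower side, so nothing is read from them here or for the lists below. Outside the members and the left-out genes, 6 of the 15 genes of this list were lower and 9 overlapped. The background for this and the lists below is the 12870 such genes outside the members, the left-out genes and apoea. Of these, 713 were lower, 2659 higher and 9498 overlapped, or 73.8%. fetub encodes fetuin B, a plasma protease inhibitor. It was at 1846, 1459 and 1322 CPM in the tert+/+, tert+/- and tert-/- livers of the 3, and at 7045 to 14958 CPM in the 10, with a median of 10746. hpxa encodes hemopexin, the plasma carrier of haem. It was at 2167, 2047 and 3117 CPM in the same livers, in the same order, and at 9165 to 24676 CPM in the 10, with a median of 11878. It was the most abundant member by count in 11 of the 13 livers, fetub in the other two.

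The serpins are inhibitors of serine proteases. serpina1, related to alpha-1-antitrypsin, remained at 9.57%, with 299 to 533 CPM in the 3 livers and 1748 to 5478 in the 10. Its neighbour in gene order serpina1l remained at 18.5%, with 527 to 728 CPM against 1844 to 4454. The vitamin D carrier GC was at 30.3 to 53.9 CPM against 188 to 779, a remaining level of 9.19%. The angiotensin precursor agt was at 57.6 to 70.9 CPM against 255 to 709, and serpinf2b, an inhibitor of plasmin, at 103 to 116 CPM against 464 to 1076. crp2, a pentraxin of the C-reactive protein family, was at 21.3 to 36.6 CPM against 145 to 320. Close paralogs such as these may share or split counts, so single members of a family are less certain than the family.

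Clotting and fibrinolysis genes gave 10 members, some also in the list above. Their median remaining level was 14.3%, and their range only 12.9% to 16.6%. Of 27 measured genes of the list, 22 were lower in the 3 livers than in each of the 10, and 0 were higher. Outside the members and left-out genes, 10 of 15 were lower. f5, clotting factor V, was at 70.5, 68.3 and 69.7 CPM in the tert+/+, tert+/- and tert-/- livers of the 3, and at 310 to 640 CPM in the 10. The values of the 3 livers were nearly the same on all counts only. Without mitochondrially encoded genes they were 83.2, 114 and 88.2 CPM in the same order. FGG, the gamma chain of fibrinogen, was at 893, 761 and 856 CPM against 2785 to 7378. Clotting factor F7 was at 27.8 to 38.2 CPM against 154 to 325, and CPB2, a carboxypeptidase that slows clot breakdown, at 51.4 to 84.1 CPM against 283 to 579.

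All complement genes with at least 100 CPM in each of the 10 livers were members, 10 of 10, with a median remaining level of 13.2%. Over all ranked genes 120 of 446 were members, and the lower level of members is how they were chosen. Of 33 measured genes of the list, 24 were lower in the 3 livers, 8 overlapped and 1 was higher. Outside the members 14 of 23 were lower, where 713 of the 12870 genes outside the choice were. The 1 higher gene was mbl2 (ENSDARG00000068220), a lectin-pathway gene by its symbol and named here after its values were seen. It was at 223 to 459 CPM in the 3 livers and at most 0.517 CPM in the 10. cfhl4, related to complement factor H, was at 190, 232 and 215 CPM in the tert+/+, tert+/- and tert-/- livers of the 3 and at 961 to 2237 CPM in the 10. c8g, a chain of the membrane attack complex, was at 50.4 to 65.4 CPM against 268 to 680, and c3a.6, a copy of complement component 3, at 50.5 to 95.5 CPM against 343 to 684. cfb, complement factor B, was at 156 to 200 CPM against 738 to 2166. Its neighbour bfb was at 57.6 to 65.1 CPM against 269 to 651. c4b, a copy of component 4, was at 29.0 to 75.9 CPM against 237 to 1037.

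Among apolipoproteins and lipoprotein assembly the list was divided. Of 29 measured genes, 10 were lower in the 3 livers, 10 were higher and 9 overlapped, and 3 were members. Outside the members, the left-out genes and apoea, 3 of 21 were lower and 9 higher. apom, a carrier of sphingosine-1-phosphate on lipoproteins, had the lowest remaining level of all members. It was at 129, 80.1 and 87.4 CPM in the tert+/+, tert+/- and tert-/- livers of the 3, against 253 to 3473 CPM in the 10. apobb.2, a copy of the structural protein of lipoproteins, was at 47.9 to 91.3 CPM against 170 to 816, and the hepatic lipase LIPC at 25.98 to 52.7 CPM against 100 to 434. For bile acids the single member was slc51a, a subunit of a bile acid exporter, at 58.4 to 127 CPM against 223 to 784. Of 17 measured genes of that list 3 were lower, 3 were higher and 11 overlapped.

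Amino acid breakdown contributed 10 members, with a median remaining level of 15.4%. Of 66 measured genes, 26 were lower in the 3 livers, 5 were higher and 35 overlapped. Outside the members 16 of 56 were lower. TDO2, which opens the ring of tryptophan, was at 228, 172 and 189 CPM in the tert+/+, tert+/- and tert-/- livers of the 3, and at 952 to 2254 CPM in the 10. BHMT, which passes a methyl group from betaine to homocysteine, was at 1036, 856 and 955 CPM against 3494 to 7639. In histidine breakdown, HAL, its first enzyme, was at 29.0 to 39.6 CPM against 154 to 334, AMDHD1 at 23.0 to 36.5 CPM against 120 to 168, and FTCD at 63.1 to 73.1 CPM against 214 to 510. These 3 enzymes of histidine breakdown remained at 15.2%, 19.1% and 19.8%. HGD, of tyrosine breakdown, was at 75.8 to 131 CPM against 425 to 842. The list of the one-carbon and methionine cycle held 3 members, BHMT, FTCD and MAT1A. MAT1A, which makes S-adenosylmethionine, was at 141 to 286 CPM against 622 to 1739. Outside the members 3 of 23 genes of that list were lower, 1 was higher and 19 overlapped. For urea cycle and purine breakdown the single member was uox, which oxidises uric acid, at 78.0 to 259 CPM against 699 to 1658. Outside it 4 of 12 genes of that list were lower, 1 was higher and 7 overlapped.

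Members of hexose metabolism remained at the highest level of the lists with more than 2 members, with a median of 22.9% over 5 members. In this list, 8 of 31 measured genes were lower in the 3 livers, 4 were higher and 19 overlapped. Outside the members 3 of 26 were lower and 4 higher. The other 19, or 73.1%, overlapped, where 73.8% of all genes outside the choice did. Each of the 5 members was highest in tert+/+ liver 5 among the 3, at 26.96% to 37.3% of the median of the 10. The other 2 livers held 13.1% to 21.3% in tert+/- liver 3 and 11.6% to 26.1% in tert-/- liver 1. Without mitochondrially encoded genes this was again so for 5 of 5, at 25.8% to 37.6%. Over all 120 members, tert+/+ liver 5 was the highest of the 3 for 59 on all counts. Without mitochondrially encoded genes it was the highest for 33. Other lists leaned to this liver or to another. On all counts tert+/+ liver 5 was highest for 7 of 10 members of amino acid breakdown. Without mitochondrially encoded genes, tert+/- liver 3 was highest for 8 of 10 clotting and fibrinolysis members. On these counts it was also the highest for 55 of all 120 members. PKLR, the pyruvate kinase of liver, was at 640, 434 and 325 CPM in tert+/+ liver 5, tert+/- liver 3 and tert-/- liver 1, and at 1584 to 3035 CPM in the 10. PYGL, which breaks down liver glycogen, was at 173, 84.5 and 82.7 CPM in the same order, against 428 to 974. g6pc1a.1, a glucose-6-phosphatase that releases free glucose, was at 59.9, 22.4 and 18.9 CPM against 117 to 367. pgm1, a phosphoglucomutase, was at 145, 76.5 and 119 CPM in the same order against 250 to 688. With 1 liver of each genotype, the liver and its genotype cannot be told apart here.

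**Figure D3:**
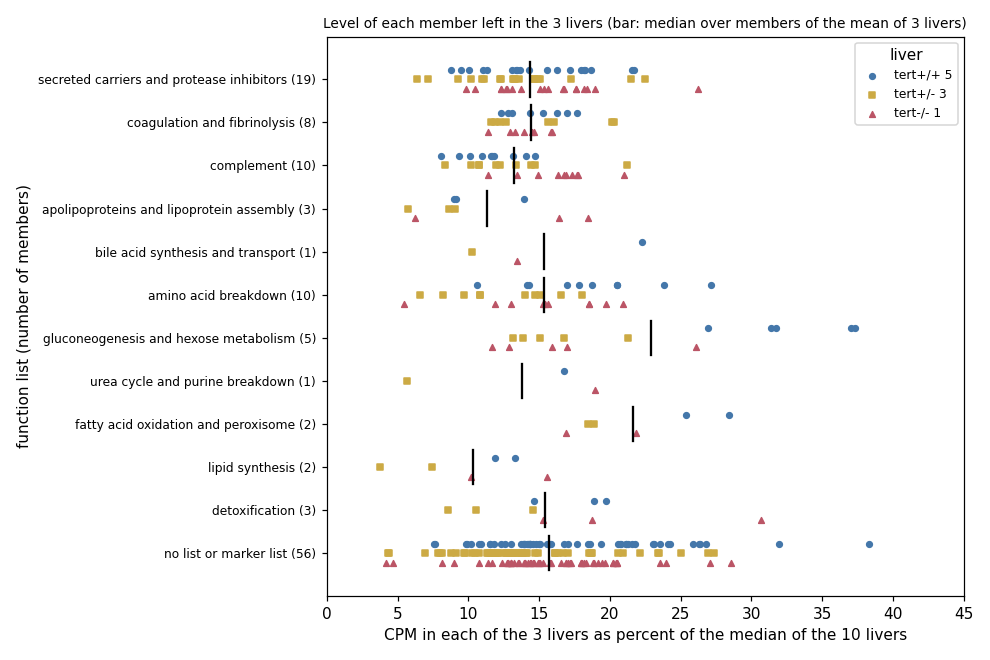
CPM of each member in the 3 livers as percent of the median of the 10, with 1 symbol and colour for each liver and members grouped by the first list that holds them; the black bar is the median over members of the mean of the 3 livers. In the row of hexose metabolism the circles of tert+/+ liver 5 stand at 26.96% to 37.3%, right of the other 2 livers for all 5 genes.

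For fatty acid oxidation and peroxisomes, 2 of the 10 genes with at least 100 CPM in each of the 10 livers were members. For lipid synthesis 2 of 4 were members and 1 was left out by its identifier. Over all ranked genes 120 of 446 were members. Of 41 measured genes of fatty acid oxidation and peroxisomes, 37 overlapped between the 3 livers and the 10, 3 were lower and 1 was higher. The 2 members, HAO1 and HAO2, are peroxisomal oxidases of 2-hydroxy acids, and were at 35.9 to 53.7 CPM against 163 to 317 and at 35.1 to 52.8 CPM against 124 to 207. In lipid synthesis, 4 of 22 measured genes were lower and 5 were higher, and the members were FASN and ACACA. Outside the members and left-out genes of that list, 1 of 19 was lower and 5 were higher. FASN, fatty acid synthase, was at 105, 29.6 and 80.0 CPM in the tert+/+, tert+/- and tert-/- livers of the 3, and ACACA, which makes its malonyl-CoA substrate, at 179, 111 and 234 CPM.

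In detoxification more genes were higher than lower, a direction also seen over all genes. Of 86 measured genes, 29 were higher in the 3 livers, 8 were lower and 49 overlapped. Outside the members 5 of 83 were lower, 29 were higher and 49 overlapped, or 59.0%. Of the 12870 genes outside the choice, 713 were lower, 2659 higher and 9498 overlapped, or 73.8%. The members were the carboxylesterase ces3, at 54.0 to 78.5 CPM against 352 to 1085, the glutathione transferase gstt1a, at 78.5 to 166 CPM against 330 to 720, and the alcohol dehydrogenase adh8a, at 124 to 273 CPM against 503 to 1691. In metal handling 6 of 22 genes were lower and 4 higher. Outside the members and left-out genes of that list, 3 of 19 were lower, 4 higher and 12 overlapped. The members in metal handling were hpxa and CP, the copper-binding ceruloplasmin, the latter at 431 to 610 CPM against 2090 to 4158.

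A pair of members came from lists of other tissues. RBP2 encodes a cellular retinol-binding protein of the intestine in mammals, and 2 zebrafish genes bear this symbol in the table. The member (ENSDARG00000093774) was at 111 to 221 CPM in the 3 livers and 529 to 1391 in the 10. The other (ENSDARG00000070038) was at 3998 to 9367 CPM in the 3 livers and 662 to 1953 in the 10, so genes of 1 symbol lay on opposite sides. amy2al1, named after pancreatic amylase, was at 28.4 to 33.4 CPM in the 3 livers and at 122 to 353 CPM in the 10. The other exocrine pancreas markers summed to 1.02% of counts in tert-/- liver 1 and to at most 0.0631% in the other 12, so amy2al1 did not follow them.

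No gene of the list of liver transcription factors reached 100 CPM in each of the 10 livers, so none could be a member. Of 48 measured, 4 were lower in the 3 livers than in each of the 10, 5 were higher and 39 overlapped, or 81.2%, where 73.1% of all genes overlapped. HNF4A, a nuclear receptor, was at 77.2 to 112 CPM in the 3 livers and 46.5 to 184 in the 10, CEBPA at 79.9 to 121 CPM against 9.87 to 511, and NR1H4, the bile acid receptor, at 44.2 to 52.1 CPM against 18.997 to 145. Which cells the RNA of these factors came from was not tested. CEBPD and atf5b also overlapped. PROX1 did not, at 10.8 to 14.2 CPM against 31.9 to 147, a remaining level of 15.0%, close to the median of the members. The other 3 that were lower, named after their values were seen, were FOXA2, hhex and NR5A2. The 5 that were higher in the 3 livers are not named here, so the lower ones do not stand for the list.

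54 of the 120 members were in no list. They include 5 of the 10 members of highest ratio and some of the most abundant ones. COMTD1, a methyltransferase by its symbol, had the highest ratio of all, with 48.8, 51.1 and 53.7 CPM in the tert+/+, tert+/- and tert-/- livers of the 3 and 281 to 656 CPM in the 10. si:rp71-15k1.1 was at 53.0 to 60.6 CPM against 277 to 573, si:ch211-262h13.5 at 48.1 to 71.1 CPM against 287 to 719, and the carboxylesterase ces2a at 83.2 to 93.5 CPM against 383 to 928. Per kilobase of gene length, the member of highest median level over the 10 livers was wu:fj16a03, at 9179 CPM per kilobase. It was followed by fetub at 6525, BHMT at 4088 and C20H6orf58 (ENSDARG00000090722) at 3734. On this per-length scale hpxa was at 3040, FGG at 3012, cbln8 at 2916, serpina1 at 2531, serpina1l at 1950 and zgc:123103 at 1870 CPM per kilobase. In CPM, wu:fj16a03 was at 501 to 669 in the 3 livers and 2078 to 4149 in the 10, C20H6orf58 at 703 to 881 against 3448 to 8087, cbln8 at 246 to 387 against 1110 to 4228, and zgc:123103 at 443 to 554 against 1778 to 4169.

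Some members lie next to each other on the chromosomes. In the gene order of RefSeq on another zebrafish assembly, GRCz12tu, 97 members could be placed by symbol, and 22 of them lay in 10 runs at most 5 genes apart. These runs hold copies of 1 family in most cases, such as c3a.6 with c3a.1, ces2a with ces3, cfhl4 with cfh, serpina1l with serpina1, and crp2 with crp3 and crp5. The 3 pentraxin genes remained at 13.9%, 13.1% and 7.50%. The choice ended at a fixed number of genes. The last members, NID1 and SORD, were at 37.5 to 90.3 CPM against 155 to 648 and at 32.3 to 80.2 CPM against 134 to 273. The first genes outside, zgc:77439 and ptmaa, were at 431 to 644 CPM against 1006 to 2084 and at 103 to 160 CPM against 250 to 592. NID1 and SORD remained at 17.3% and 23.1%, zgc:77439 and ptmaa at 33.2% and 32.9%.

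Within the 10 livers the members varied about as much as other abundant genes. The highest value over the lowest was 2.77-fold at the median over members and 2.63-fold over the 446 ranked genes, the members included. The ranking used the lowest value of the 10 livers, so these ranges are not free of the choice. Without mitochondrially encoded genes it was 2.17-fold and 2.18-fold. The ratio was under 2 in 14 members and over 5 in 6. The narrowest were AMDHD1, at 120 to 168 CPM or 1.401-fold, DPYD, of pyrimidine breakdown, at 214 to 350 CPM or 1.63-fold, and HAO2 at 1.67-fold. Without mitochondrially encoded genes the range of AMDHD1 was 2.36-fold.

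FASN had the widest range, 20.2-fold, and 19.1-fold without mitochondrially encoded genes. It was at 240, 785, 620 and 471 CPM in tert+/+ livers 1 to 4, at 403, 785, 2376 and 4841 CPM in tert+/- livers 1, 2, 4 and 5, and at 803 and 1130 CPM in tert-/- livers 2 and 3. The 2 highest values were both in tert+/- livers, and the other 2 tert+/- livers lay among the tert+/+ values. The lowest and the highest value of the 10 came from tert+/+ liver 1 and tert+/- liver 5, the 2 livers with heart muscle markers, whose part in this was not tested. ACACA, with a range of 7.03-fold, was at 1036, 1546, 1893 and 550 CPM in the same tert+/+ livers, 664, 957, 3214 and 3863 CPM in the tert+/- and 1620 and 1450 CPM in the tert-/- livers. Its 2 highest values were in the same 2 tert+/- livers as those of FASN.

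apom ranged 13.7-fold, from 253 CPM in tert+/+ liver 4 to 3473 CPM in tert-/- liver 3, and 6.75-fold without mitochondrially encoded genes, with the same livers at its ends. spp2, a secreted phosphoprotein, ranged from 100 CPM in tert+/+ liver 4 to 702 CPM in tert+/- liver 2, or 6.99-fold, and 3.45-fold without those genes. zgc:153921 ranged from 126 to 737 CPM, or 5.87-fold. In each of the 5 widest members, the 3 livers with high apoea still lay below all 10, as the choice of members fixed.

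**Figure D4:**
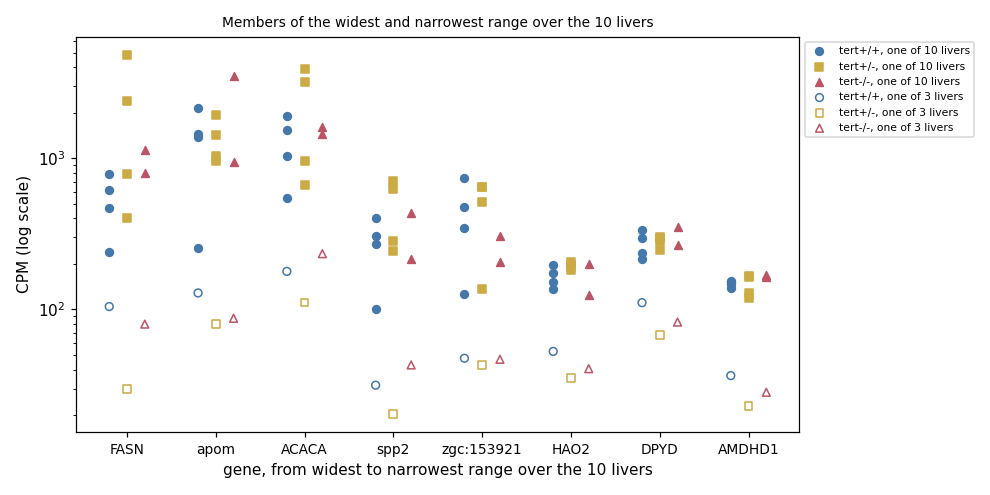
CPM, on a log axis, of the 5 members of widest and the 3 of narrowest range over the 10 livers, with filled symbols for the 10 livers and open symbols for the 3 with high apoea, by genotype. The 2 highest points of FASN and of ACACA are filled squares of tert+/- livers, and AMDHD1 spans only 120 to 168 CPM among filled symbols.

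The study compared the genotypes, so the members were read in the same comparisons. Genotype did not enter their choice, but the values of the livers did. In the fit of all 13 livers, the low values of the 3 livers, fixed by the choice, enter the medians and the spread of the members. Nothing about genotype is therefore read for the members from that fit. Fold changes are log2 values of edgeR's quasi-likelihood test, with Benjamini-Hochberg adjusted p-values over all genes tested and a threshold of 0.05. In the fit of all 13 livers, 0 of 120 members passed in any comparison, where 0 of all 16376 genes passed either, a background of 0.0%. Before adjustment, 189 genes had a p under 0.05 for tert-/- versus wild type, 218 for tert+/- versus wild type and 184 between the mutant genotypes, which is 1.15%, 1.33% and 1.12% of genes, and 0 members were among them in each comparison. DESeq2 called 3, 0 and 2 genes, or 0.0197%, 0.0% and 0.0131% of those it gave an adjusted p, and 0 members. The median log2 fold change of the members was -0.21, 0.03 and -0.27, and 17, 66 and 22 of the 120 were higher. Over all genes the medians were -0.01, -0.03 and 0.01, and 49.2%, 46.5% and 50.6% were higher. The comparisons share groups of fish, so they are not separate evidence.

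These medians in 13 livers moved when single livers were left out. The 3 livers with high apoea make up 1 of 3 tert-/- livers but 1 of 5 in each of the other genotypes, and the standard errors of single members were 0.57 to 1.26. Without tert-/- liver 1, the median of tert-/- against tert+/+ was 0.31 in place of -0.21, and that of tert-/- against tert+/- 0.23 in place of -0.27. At the other end, they were -0.64 and -0.66 without tert-/- liver 3 and -0.51 and -0.54 without tert-/- liver 2, neither of which has high apoea. The first was -0.49 without tert+/+ liver 5, and the second -0.54 without tert+/- liver 3. With a term for the 3 livers they were -0.07 and -0.13. Without tert+/+ liver 5 and without tert+/- liver 3, tert+/- against tert+/+ had a median of -0.25 and 0.30.

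In the 10 livers without high apoea, the median log2 fold changes lay near 0. They were 0.03 for tert-/- against tert+/+, -0.01 for tert+/- against tert+/+ and -0.01 for tert-/- against tert+/-, with 66, 58 and 59 of 120 members higher, where the medians over all genes were -0.04, -0.06 and -0.01 and 46.7%, 43.3% and 49.3% of genes were higher. 0 of 120 members and 0 of all 16219 genes passed in each, again a background of 0.0%. Before adjustment 328, 383 and 305 genes, or 2.02%, 2.36% and 1.88%, had a p under 0.05, against 0, 2 and 0 members. DESeq2 called 6, 13 and 4 genes, or 0.0384%, 0.108% and 0.0256%, and 0 members. The members took 8.84% to 16.8% of counts in the 4 tert+/+, 14.5% to 18.1% in the 4 tert+/- and 11.4% and 16.6% in the 2 tert-/- livers. Without mitochondrially encoded genes these ranges were 15.2% to 19.5%, 15.8% to 19.8%, and 17.0% and 18.1%, so the genotypes overlapped. The standard errors of single members were 0.21 to 0.82, which limits the size of change that could be detected in these 10 livers. The choice used the lowest value of each gene in these same 10 livers, with a floor of 100 CPM. Genes far lower in 1 genotype were thus less likely to be chosen. Small fold changes of the members are therefore partly fixed by the choice, and no absence of a genotype effect is read from them.

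The 2 members with p under 0.05 before adjustment were a2ml and FASN, both in tert+/- against tert+/+. a2ml, related to the plasma protease inhibitor alpha-2-macroglobulin, was at 342, 431, 478 and 143 CPM in tert+/+ livers 1 to 4 and at 205, 185, 278 and 328 CPM in tert+/- livers 1, 2, 4 and 5. The groups overlapped, and the log2 fold change was -0.69 ± 0.25 (SE; edgeR, unadjusted p = 0.0178, adjusted p = 0.9997). For FASN it was 1.49 ± 0.66 (SE; edgeR, unadjusted p = 0.0480, adjusted p = 0.9997), with the overlap given above, and 0.90 without tert+/- liver 5. In all 13 livers a2ml had a log2 fold change of -0.62 ± 0.75 and FASN of 1.49 ± 1.07 (SE; edgeR, adjusted p = 0.9999 for both). There a2ml was at -0.34 without tert+/+ liver 3, -0.36 without tert+/- liver 3 and -0.92 without tert+/+ liver 5, and FASN at 0.78 without tert+/- liver 5 and 1.85 without tert+/+ liver 4.

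Other members with the smallest p of their comparison were as far from the threshold. In tert-/- against tert+/+ of the 10 livers these were ENSDARG00000105451, with a log2 fold change of 0.63 ± 0.34, and crp3, with 0.61 ± 0.36 (SE; edgeR, adjusted p = 0.9998 for both). In tert-/- against tert+/- they were HAL, with 0.54 ± 0.26, and PKLR, with 0.84 ± 0.43 (SE; edgeR, adjusted p = 0.999 for both). PKLR was at 3035 and 2457 CPM in tert-/- livers 2 and 3 and at 1597, 2129, 1584 and 2328 CPM in the 4 tert+/- livers. Its log2 fold change was 0.39 without tert-/- liver 2 and 1.19 without tert-/- liver 3. In the 13 livers the fatty acid transporter SLC27A1 had log2 fold changes of -0.98 ± 0.98 for tert-/- versus wild type and -1.15 ± 0.99 for tert-/- versus tert+/-, and zgc:153921 of -0.82 ± 1.02 and -1.01 ± 1.03 (SE; edgeR, adjusted p = 0.99998 for each). The low values of the 3 livers, fixed by the choice, enter this fit. Nothing about genotype is therefore read from these values, nor from those of a2ml and FASN in the 13 livers. Leaving out single livers gave SLC27A1 values of -1.79 to -0.47 in the first comparison and of -1.95 to -0.63 in the second, with tert-/- livers 2 and 1 left out at these ends, and one of -0.58 in the first without tert+/+ liver 4. It gave zgc:153921 values of -1.21 to -0.30 and of -1.40 to -0.49, with tert-/- livers 3 and 1 left out, and one of -0.43 in the first without tert+/+ liver 2. No gene of any of the function or marker lists was called in any comparison of genotypes by edgeR.

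**Figure D5:**
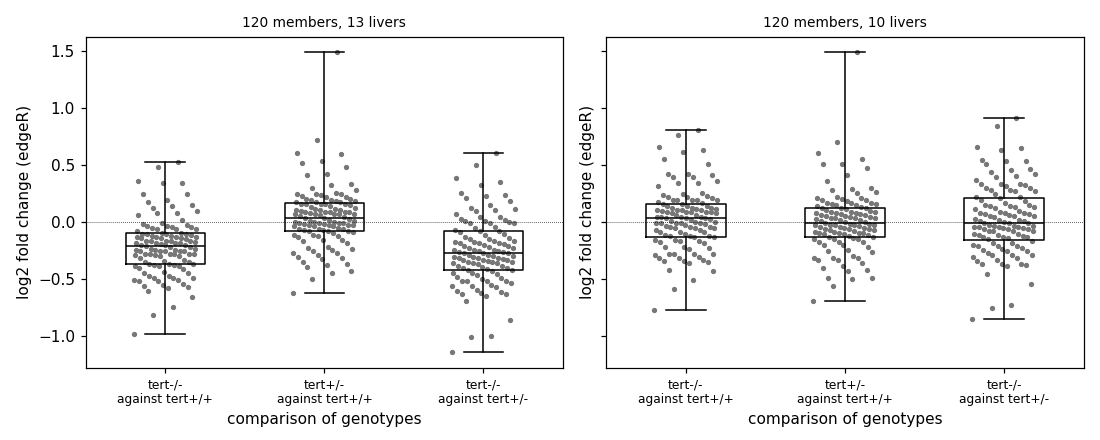
Log2 fold change of each of the 120 members (points) in the 3 comparisons of genotypes, in all 13 livers (left) and in the 10 without high apoea (right); boxes give the quartiles and median, whiskers the full range. The medians are -0.21, 0.03 and -0.27 on the left and 0.03, -0.01 and -0.01 on the right, and 0 members passed the threshold.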

How the data were processed

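Liver RNA of 13 male zebrafish was sequenced, and groups were taken from the submitters' labels. The analysis starts from raw counts for each gene as deposited by the authors. Of tools, the submitters' notes give featureCounts 1.4.6-p4, STAR 2.4.1d and bcl2fastq 1.8.4 with the build GRCz10, whereas the methods name kallisto. The authors also deposited RPKM, which was used only to recover gene lengths. Over 2821 genes with at least 200 counts per liver, the length so obtained differed between livers by a median CV of 27.8% if each liver's total was used, but only 0.00184% if the 13 totals were cycled over the genes, so RPKM itself was not analysed.

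Counts were analysed with edgeR 4.0.16 (filterByExpr, TMM, quasi-likelihood test, 1 fit with a group per genotype) and DESeq2 1.42.0 in R 4.3.3, and in Python 3.11.15. Genotypes were compared in all 13 livers and in the 10 without high apoea. Adjusted p-values are Benjamini-Hochberg over all genes tested, with a threshold of 0.05. The steps were tested on simulated counts. No pair of the 78 pairs of libraries agreed within sampling noise (lowest chi-square per degree of freedom 86.1). Each liver was taken as 1 fish, as the labels number them.

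The members and the gene lists were chosen with earlier results of these data known. After the counts were seen, the matching of list symbols was widened so that a symbol without a zebrafish match could also match a listed name ending in a or b, such as TDO2. Lists were read over genes with a mean of at least 1 CPM, and by whether the 3 livers lay below or above all 10. Symbols in capitals have the form of human gene symbols, and genes with the same symbol were told apart by identifier. Reads of close paralogs could have been assigned to either copy. Genes named in the text are the 10 members of highest ratio, the 10 of highest level per length, up to 5 of highest ratio per list, the 5 of widest and 3 of narrowest range over the 10 livers, the 2 of smallest p in each comparison, the 2 on each side of the end of the ranking, and the 6 genes of highest mean CPM outside the members from the lists of liver transcription factors and of intestine markers. Others named by extreme values, as neighbours or as markers were chosen after their values were seen. A search of promoters for motifs was planned and not run, since no sequences were used here. Alternatives were DESeq2, its size factors, no low-count filter, counts without mitochondrially encoded genes, only the 2 groups compared, a term for the 3 livers, other forms of the ranking and leaving out each liver.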

Additional observations from a re-analysis of the deposited data

Results flagged for a closer look

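Groups of 4 or 5 livers were searched for a liver far from the others by Dixon's test. Chance would give about 6.5 in 130 groups of values if the groups were independent. They share the same livers, so this number is no benchmark here. Of the 130 groups, 5 stood out. 3 of the 5 were the members' summed share in a liver with high apoea, which the choice of members fixed. It was 1.98% of counts in tert+/- liver 3 against 14.5% to 18.1% in the other 4 tert+/- livers. Without mitochondrially encoded genes it was 3.31% in this liver against 15.8% to 19.8%, and 2.82% in tert+/+ liver 5 against 15.2% to 19.5% in the other 4 tert+/+ livers.

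The other two concern single members in the 10 livers. serpina1 was at 1748 CPM in tert+/+ liver 4 and at 4253 to 4737 CPM in the other 3 tert+/+ livers. This liver had 54.7% of mitochondrial counts, and without mitochondrially encoded genes serpina1 was at 3854 against 4849 to 5534 CPM. PYGL was at 845 CPM in tert+/- liver 5 and at 624.7 to 644 CPM in the other 3 tert+/- livers, and at 918 against 698 to 716 CPM without those genes. tert+/- liver 5 was 1 of the 2 livers with heart muscle markers, and their part in this value was not tested.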

How the results depend on the processing

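The number of members called was 0 in each comparison of genotypes under each alternative run. The number of all genes called was 0 by edgeR and by DESeq2 3 and 2 in the 13 livers, for tert-/- against tert+/+ and against tert+/-. In the 10 livers DESeq2 called 6 genes for tert-/- against tert+/+, 13 for tert+/- against tert+/+ and 4 for tert-/- against tert+/-. By edgeR in the 10 livers, where the full fit called 0 genes, leaving out each liver gave 0 to 1 genes for tert-/- against tert+/+ and for tert+/- against tert+/+, the 1 gene in each without tert+/+ liver 2. The cause of these differences was not tested. The median level of the members in the 3 livers was 14.8% of the other 10, 17.1% without mitochondrially encoded genes in the denominator, 11.7% on TMM-normalized CPM and 14.05% to 15.5% when each liver was left out. The members' median log2 fold change moved by less than its spread between livers under each alternative, although in the 13 livers that spread is wide and the sign turned without single livers.

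Which genes were members depended on the ranking. 88 of the 120 remained among the first 120 without mitochondrially encoded genes in the denominator, 88 on TMM-normalized CPM, 120 with an offset of 1 CPM, 92 with a floor of 50 CPM and 82 with a floor of 200 CPM. 102 to 120 remained when each liver was left out, fewest without tert+/+ liver 4. None of the 12 fold changes given for single members changed sign under any alternative. No paired analysis was possible because the replicate numbers follow the order of accession and pair no fish. With 2 tert-/- livers among the 10, small changes in that group could not be detected.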
